A study of Homo sapiens with 18 samples.

Results

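MIS12 and 9 other kinetochore genes were followed through newly made and total RNA of HEK293 cells, a human embryonic kidney line. The 10 genes were listed by name: MIS12, DSN1, NSL1 and PMF1 of the Mis12 complex, NDC80, NUF2, SPC24 and SPC25 of the Ndc80 complex, and CENPA and CENPE. They are 10 of the 63568 gene entries in the deposited expression table. MIS12 was chosen by its measured values, because its spliced RNA had one of the largest rises between 7.5 and 60 min of labelling, so its values at those times are given as a description, with no test.

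All 18 libraries came from HEK293 cells with no other genotype or treatment in the labels. For 15 of them cells were given 4-thiouridine for 7.5, 15, 30, 45 or 60 min (3 libraries per time). This uridine analogue enters RNA transcribed while it is present, which lets new RNA be biotinylated and pulled out with streptavidin. The other 3 libraries are total RNA without that selection, and each kept ribosomal RNA out in its own way: replicate 1 by poly(A) selection, replicate 2 by RNase H and replicate 3 by Ribo-Zero. The labels do not say whether replicates are separate cultures, and p-values therefore cover only the spread between these libraries, which may be technical. Values are TPM (transcripts per 1000000, a level per transcript length), given separately for mature (spliced) RNA and for the primary transcript that spans the whole locus. TPM are shares of a library, so a higher or lower TPM here means a changed share and not a changed amount per cell. TPM carry no read depth, so the depth is unknown. In bulk samples such as these, more RNA per cell and more cells with the RNA cannot be told apart.

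The kinetochore is the protein assembly that holds a chromosome to spindle microtubules in mitosis. CENPA, a variant of histone H3, marks the centromere. The Mis12 complex sits on the inner kinetochore and carries the Ndc80 complex, whose NDC80 and NUF2 subunits bind microtubules and whose SPC24 and SPC25 subunits hold on to the Mis12 complex. CENPE is a kinesin motor that helps chromosomes reach the spindle equator. Many genes of mitosis are transcribed in a cell cycle-dependent way, through promoter elements such as the CHR, read by DREAM and MuvB complexes, and the CCAAT box, read by NF-Y.

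The MIS12 locus lies on chr17:5486285-5490814 of GRCh38 (plus strand, 4530 bases, 2 to 3 exons per transcript in GENCODE 29) and was the shortest of the 10 loci, the others spanning 22028 to 92604 bases. DERL2, an endoplasmic reticulum protein of the degradation pathway for misfolded proteins, is transcribed away from it on the other strand, and the annotated loci overlap by 527 bases. The RefSeq start of DERL2 (position 5486178) and the first RefSeq start of MIS12 (position 5486374) leave a shared stretch at chr17:5486179-5486373, shown here 5′ to 3′ on the plus strand because both genes start at its ends. Capitals mark its CCAAT letters.
DERL2 to MIS12: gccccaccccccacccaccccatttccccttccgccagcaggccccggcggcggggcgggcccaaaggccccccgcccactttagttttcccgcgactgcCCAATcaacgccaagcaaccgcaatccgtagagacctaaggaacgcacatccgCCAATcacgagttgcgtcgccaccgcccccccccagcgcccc
The 300-base windows around the 2 starts (250 bases before to 50 after) share 295 bases. The window of a second RefSeq start of MIS12 (chr17:5486316-5486615) holds CCAAT letters whose first bases are at -234, -125 and -53 from that start.

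The start regions of 4 of the partners hold the CHR letters TTTGAA, which the MIS12 windows do not. Below, 90 bases around each of those RefSeq starts (GRCh38.p14, 60 before to 30 after) are given on the gene's strand, 5′ to 3′. Capitals mark TTTGAA or its variant TTCGAA on either strand.
NUF2 (chr1:163321894-163321983, plus strand): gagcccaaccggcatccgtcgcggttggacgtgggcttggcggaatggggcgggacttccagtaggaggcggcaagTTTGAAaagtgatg
SPC25 (chr2:168890401-168890490, minus strand): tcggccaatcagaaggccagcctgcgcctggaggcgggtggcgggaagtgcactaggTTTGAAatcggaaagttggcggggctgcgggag
NDC80 (chr18:2571497-2571586, plus strand): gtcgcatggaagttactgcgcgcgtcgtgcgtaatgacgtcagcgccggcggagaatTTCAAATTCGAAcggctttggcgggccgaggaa
CENPA (chr2:26785996-26786085, plus strand): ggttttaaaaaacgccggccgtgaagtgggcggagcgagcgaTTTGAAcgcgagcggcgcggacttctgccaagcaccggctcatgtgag
In NDC80 a TTTGAA on the opposite strand and a TTCGAA lie side by side without overlap. Searched on both strands, TTTGAA was in the windows of 4 of the 10 genes, against 15.2% of 35116 RefSeq promoter windows of the same length. TTCGAA was in 1 (NDC80), against 1.45%. CCAAT was in 5 (MIS12, PMF1, SPC24, SPC25 and CENPA), against 34.6%. A gene with more than 1 window was counted if any of them held the letters, while the shares are of single windows. These are matches of letters in a window, not measured binding sites.

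MIS12 started as one of the lowest mature RNAs of the group and became the highest. At 7.5 min its mature level was 3.65, 5.15 and 12.02 TPM in replicates 1 to 3. At 15 min it was 7.81, 14.5 and 31.2 TPM, and at 30 min 54.6, 44.1 and 63.4 TPM. The largest step thus lay between 15 and 30 min, with a log2 difference of 1.73, after 1.19 from 7.5 to 15 min. At 45 min the libraries held 69.8, 65.0 and 72.2 TPM, and at 60 min 81.6, 75.0 and 107 TPM. The last 2 steps were smaller, 0.36 and 0.33 on the log2 scale. From 7.5 min (6.94 ± 4.46 TPM, SD, n = 3) to 60 min (87.8 ± 16.7 TPM, SD, n = 3) the mean was 12.6-fold higher, and no library at 60 min came near one at 7.5 min.

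By the measure that chose it, the difference of log2(TPM + 1) between 60 and 7.5 min, MIS12 stood 7th of 16738 genes at 3.61. The gene just above it, an entry without a matched symbol, was at 3.62, and ZNF304, just below, was at 3.60. The median over all genes was 0.24. DERL2 was 326th at 2.01. Among the partners CENPA was 193rd at 2.24, and the others lay between 0.55 (CENPE) and -1.25 (SPC25 and PMF1). Libraries at 60 min lay wholly above those at 7.5 min for MIS12, SPC24 and CENPA (3 of 10 genes, where 29.8% of all genes did) and wholly below for PMF1 and SPC25 (2 of 10, where 11.0% did).

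**Figure D1:**
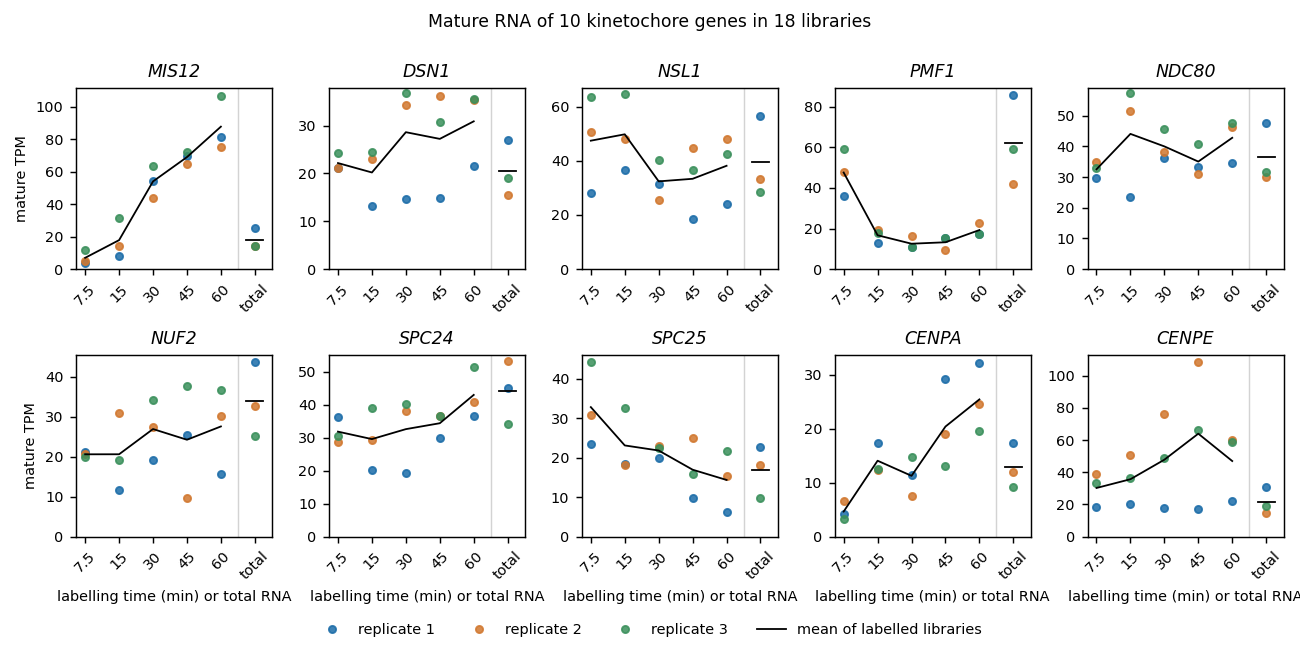
Mature TPM of the 10 genes in each library (points, coloured by replicate) against labelling time in min, with total RNA at the right and lines for the mean of the 3 libraries. Each panel has its own linear axis from 0; MIS12 goes from 6.94 to 87.8 TPM while total RNA holds 18.1 TPM.

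None of the other Mis12 complex genes had a rise in mean level as large as that of MIS12, though the difference was not tested. DSN1, which takes part in binding the inner kinetochore and pairs with NSL1 in the complex, ranged from 13.2 to 36.8 TPM over all labelled libraries, with a mean of 22.2 ± 1.91 TPM after 7.5 min and of 30.9 ± 8.08 TPM after 60 min (SD, n = 3 each). Its libraries at those 2 times overlapped. NSL1, whose tail helps hold the outer kinetochore, held 28.0, 50.7 and 63.8 TPM at 7.5 min and 24.0, 48.0 and 42.6 TPM at 60 min, again with overlap. PMF1, the subunit that pairs with MIS12, was at 36.2, 47.7 and 59 TPM at 7.5 min, then between 9.26 and 19.1 TPM in the 9 libraries at 15, 30 and 45 min, and at 17.4, 23.0 and 17.3 TPM at 60 min. PMF1 was therefore highest at the time when MIS12 was lowest. An annotated read-through gene, PMF1-BGLAP, covers PMF1 on the same strand, so the split of reads between them is uncertain.

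Within the Ndc80 complex 2 genes overlapped between these times and 2 did not. NDC80 was at 29.8, 34.9 and 32.9 TPM at 7.5 min and 34.5, 46.3 and 47.7 TPM at 60 min, and NUF2, its dimer partner, at 21.1, 20.7 and 20.0 TPM and then 15.8, 30.3 and 36.7 TPM. Both pairs of groups overlapped. SPC24 was at 36.1, 28.7 and 30.6 TPM at 7.5 min and 36.6, 40.9 and 51.3 TPM at 60 min, just without overlap. Its dimer partner SPC25 went the other way, from 23.5, 30.8 and 44.1 TPM to 6.13, 15.2 and 21.7 TPM. The partners of one dimer thus ended with mature means of 42.9 ± 7.53 TPM (SPC24) and 14.3 ± 7.81 TPM (SPC25; SD, n = 3 each).

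CENPA, like MIS12, began low, at 4.12, 6.53 and 3.24 TPM at 7.5 min. It held 17.3, 12.3 and 12.5 TPM at 15 min, 11.4, 7.54 and 14.8 TPM at 30 min, 29.1, 18.9 and 13.1 TPM at 45 min and 32.2, 24.5 and 19.5 TPM at 60 min. The CENPA locus overlaps that of SLC35F6 on the same strand, which had 10.3 to 27.2 TPM mature in the labelled libraries, so reads of the overlap could have been shared. The first step of CENPA, 1.44 on the log2 scale, was its largest, while the largest of MIS12 came 1 step later. CENPE depended on the replicate: replicate 1 stayed between 17.3 and 22.1 TPM at every labelling time, replicate 2 between 38.7 and 108 TPM, and replicate 3 between 33.3 and 66.3 TPM. CENPE was lowest in replicate 1 and highest in replicate 2 at all 5 times, and DSN1 was also lowest in replicate 1 at all 5. MIS12 was highest in replicate 3 at all 5.

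The order of the levels changed with these courses. At 7.5 min MIS12 was 9th of the 10 genes, above CENPA (4.63 ± 1.70 TPM, SD, n = 3) with overlapping libraries, and at 15 min 8th. It was 1st at 30, 45 and 60 min. At 45 min CENPE, 2nd at 63.9 ± 45.5 TPM (SD, n = 3), overlapped with it, and at 60 min CENPE (46.9 ± 21.6 TPM, SD, n = 3) did not.

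Libraries at the labelling times that the choice of MIS12 did not use gave the tests. These times lie within the same labelling course whose rise in mature RNA led to the choice. A mature rise of MIS12 at 45 against 15 min was therefore likely once it was chosen, and its result is not independent of the choice. Of the 10 genes, MIS12 alone passed at 45 against 15 min, with a 3.87-fold higher mean and a change of 2.09 in log2(TPM + 1) (SE 0.39, limma adjusted p = 0.0260). Thus 1 of 10 rose and 0 fell, where 2.47% of the 16850 genes tested were called higher and 0.659% lower. The 3 MIS12 libraries at 45 min lay above all 3 at 15 min, as those of 17.8% of genes did. The median change was 0.19 over the 10 genes and 0.21 over all genes. With median-ratio scaling, under which 0.291% of genes were called higher and 0.724% lower, the median over all genes was -0.06 and MIS12 was at 1.80 (limma adjusted p = 0.0523). The MIS12 call did not survive leaving out 15 min replicate 2 (adjusted p = 0.0713) or 45 min replicate 1 (0.0703), 2 (0.0544) or 3 (0.0622), and its adjusted p ranged from 0.00754 to 0.236 over 14 alternatives.

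The other 9 genes did not pass, with limma adjusted p from 0.353 (NSL1) to 0.908 (NUF2). The Mis12 complex partners had log2 changes of 0.37 (DSN1, SE 0.44), -0.61 (NSL1, SE 0.35) and -0.33 (PMF1, SE 0.33). In the Ndc80 complex the changes ran from -0.46 (SPC25, SE 0.36) to 0.25 (SPC24, SE 0.34), with NDC80 at -0.23 and NUF2 at 0.14. CENPA was at 0.45 (SE 0.37) and CENPE at 0.58 (SE 0.66). The signs of NUF2 and SPC24 flipped with median-ratio scaling. Whether MIS12 and a partner differ in their change was not tested.

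The wider kinetochore list of 43 genes held 1 gene that rose and none that fell at 45 against 15 min, where 2.47% of all genes tested were called higher and 0.659% lower, so the count is near that of genes in general. The median was 0.49 over the list and 0.21 over all genes. That gene was CDCA8, the Borealin subunit of the chromosomal passenger complex. Its libraries held 27.6, 29.9 and 27.5 TPM at 15 min and 68.9, 60.1 and 52.1 TPM at 45 min, without overlap (log2 change 1.06, SE 0.21, limma adjusted p = 0.0312). The CDCA8 call was lost when any 1 of the 6 libraries was left out (adjusted p from 0.0589 to 0.0865) and with median-ratio scaling (0.140). By role the medians were 0.08 for 14 inner kinetochore genes, 0.75 for 9 outer kinetochore genes, 0.56 for 7 spindle checkpoint genes, 0.10 for 3 RZZ genes, 0.65 for 4 CENPA loading genes and 0.44 for 6 passenger complex and shugoshin genes.

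The primary transcript of MIS12 had another course than its mature RNA. Primary MIS12 held 34.1, 28.7 and 30.6 TPM at 7.5 min, 31.7, 48.4 and 45.4 TPM at 15 min and 42.3, 36.5 and 36.5 TPM at 30 min. It held 22.7, 24.4 and 29.9 TPM at 45 min and 18.8, 23.6 and 21.5 TPM at 60 min. The primary form was thus the more abundant at 7.5 and 15 min in each replicate, and the mature form from 30 min on. Summed, the 2 forms went from 38.1 ± 4.40 TPM at 7.5 min to 59.6 ± 18.8, 92.5 ± 10.4, 94.7 ± 6.60 and 109 ± 16.6 TPM (SD, n = 3 each). On that sum the 45 against 15 min change of MIS12 was 0.71 and did not pass (limma adjusted p = 0.236).

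Primary transcripts of all 10 genes lay lower at 60 than at 7.5 min in every library, as did those of 68.4% of 20012 genes. At 45 against 15 min 4 of 10 passed as lower, where 34.9% of 20046 primary transcripts were called lower and 0.249% higher. These were MIS12 (log2 change -0.69, limma adjusted p = 0.0394), PMF1 (-3.20, 0.0322), NDC80 (-1.22, 0.0354) and CENPE (-1.60, 0.0259). The median was -0.96 over the 10 genes and -0.95 over all, and 28 of the 43 wider genes passed as lower. With median-ratio scaling, which set the median over all genes to -0.05 and the called shares to 0.0399% lower and 0.0898% higher, none of the 10 passed and MIS12 (0.32), DSN1, NUF2, SPC24 and CENPA were above 0. The count was 0 without 15 min replicate 2 or replicate 3 and 1 without 45 min replicate 1. The number of all genes called lower also moved, from 11 to 9952 over the left-out libraries, where the main fit called 7002.

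Primary PMF1 varied most between libraries: 224, 48.1 and 54.3 TPM at 7.5 min and 691, 78.3 and 89.7 TPM at 15 min. It held 65.9, 178 and 57.0 TPM at 30 min. It was at 28.9, 29.5 and 7.28 TPM at 45 min and 13.2, 10.1 and 16.8 TPM at 60 min. Replicate 1 alone was high at the first 2 times, and replicate 2 alone at 30 min. PMF1-BGLAP, whose locus covers it, had primary values of 0 to 26.2 TPM in the labelled libraries, 26.2 TPM being that of 45 min replicate 3, where primary PMF1 was lowest of the 45 min libraries.

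**Figure D2:**
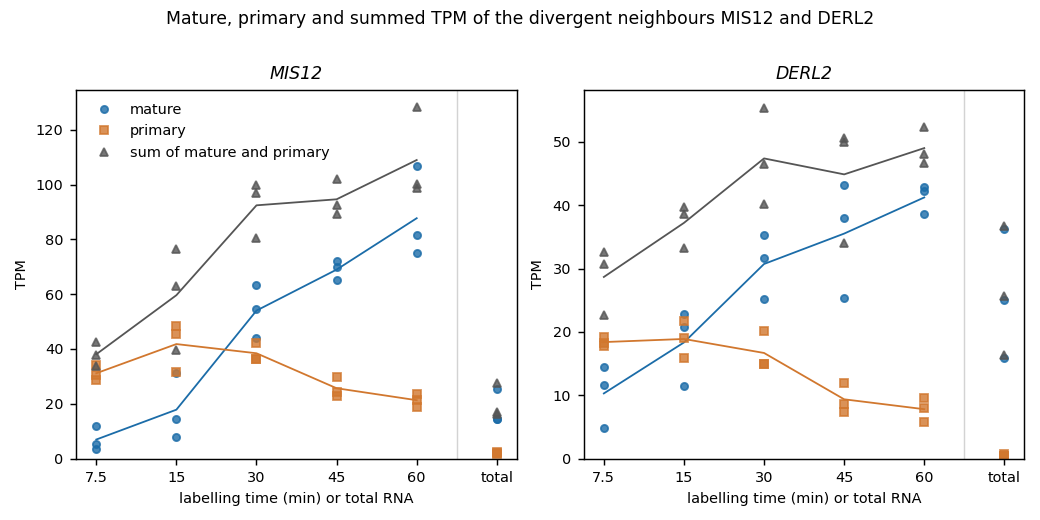
Mature (circles), primary (squares) and summed (triangles) TPM of MIS12 and of its divergent neighbour DERL2 in each library, on linear axes from 0, with lines through the means of 3 libraries. In both genes mature RNA overtakes primary RNA, for MIS12 by 30 min, and total RNA holds little of the primary form.

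DERL2, which shares the promoter stretch printed above, was at 4.89, 11.6 and 14.4 TPM mature at 7.5 min. At 15 min its libraries held 22.8, 20.7 and 11.5 TPM, at 45 min 43.2, 25.4 and 38.0 TPM, and at 60 min 42.2, 38.6 and 42.9 TPM. Its 45 min libraries lay above those at 15 min, but the change of 0.94 (SE 0.32) did not pass (limma adjusted p = 0.131). Primary DERL2 was lower at 45 than at 15 min (-1.02, limma adjusted p = 0.0298), although with median-ratio scaling that change was -0.02 and did not pass. In total RNA DERL2 held 36.3, 25.0 and 16.0 TPM. Sequencing was strand-specific per the series text. Whether counting used the strand is unstated in these sources, so reads in the 527 overlapping bases could have been shared.

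The unspliced share, primary TPM as a percent of primary plus mature TPM, put MIS12 near the top of all genes early and near the middle later. It was 90.3%, 84.8% and 71.8% at 7.5 min (82.3% ± 9.51, SD, n = 3), when the median over 13878 genes was 38.9% ± 0.474 (SD, n = 3). In those libraries 89.7% to 96.0% of genes had a lower share. It was then 72.1% ± 11.3 (15 min), 41.8% ± 4.65 (30 min), 27.0% ± 2.39 (45 min) and 19.8% ± 3.70 (60 min; SD, n = 3 each). The medians over all genes at those times were 37.1%, 28.6%, 18.3% and 14.8%. At 60 min 48.3% to 72.7% of genes had a lower share than MIS12.

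Among the partners the share at 7.5 min ran from 11.04% ± 2.60 (SPC25) to 69.5% ± 9.10 (CENPA; SD, n = 3 each). CENPA and PMF1 were the other genes with means above 50%. SPC25 stayed between 5% and 15.3% in every labelled library. PMF1 was highest of the 10 at 15 min (87.3% ± 9.50, SD, n = 3) and at 30 min (87.3% ± 3.94, SD, n = 3), and its mean was also the highest at 45 min (57.98% ± 22.9, SD, n = 3) and at 60 min (40.98% ± 9.54, SD, n = 3). DSN1 was at 45.2% ± 1.14, NDC80 at 48.0% ± 0.545 and NSL1 at 34.1% ± 5.97 at 7.5 min, and at 25.3% ± 3.57, 15.7% ± 2.59 and 13.6% ± 4.04 at 60 min (SD, n = 3 each). Of the 10 genes, 8 had every library at 60 min below those at 7.5 min, as 72.7% of genes did. PMF1 and SPC25 were the exceptions.

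**Figure D3:**
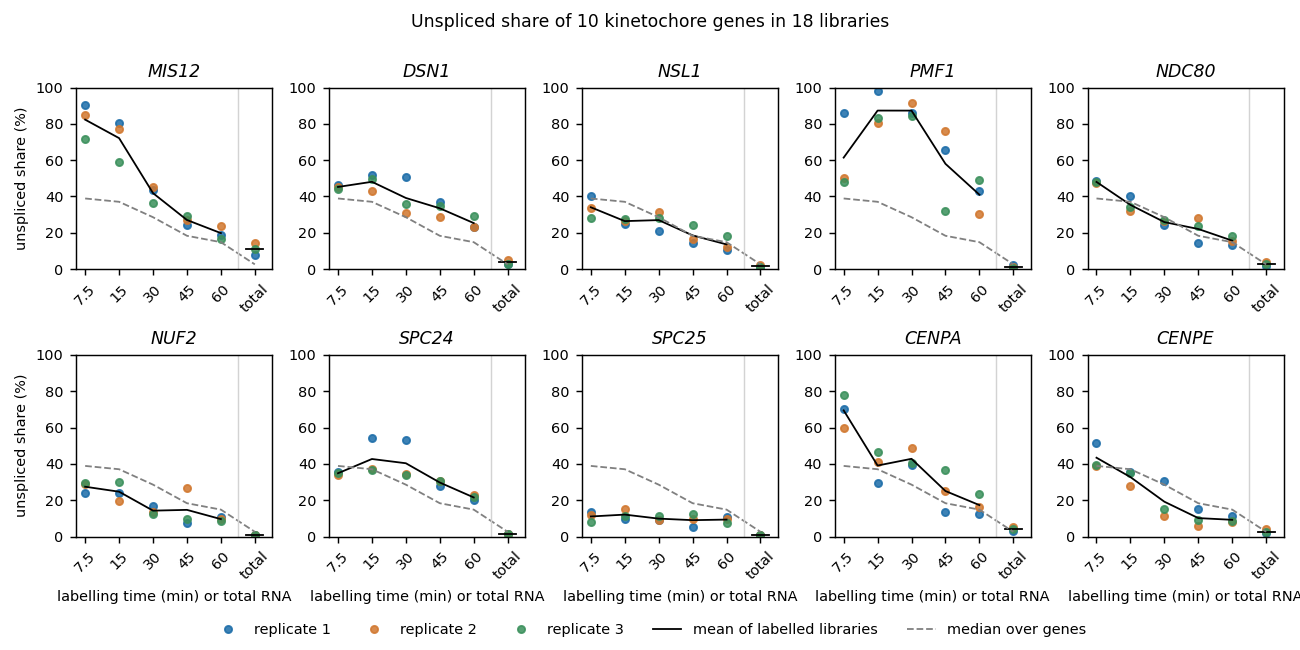
Unspliced share in percent (0 to 100) of the 10 genes in each library against labelling time in min and in total RNA, with the mean (black) and the median over 13878 genes (dashed). MIS12 goes from 82.3% to 19.8% and has 11.2% in total RNA, SPC25 lies near 10% throughout labelling, and PMF1 peaks at 15 and 30 min.

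Tested within each gene, where the scaling of the library drops out, the ratio of primary to mature RNA fell for 3 of 10 genes at 45 against 15 min, where 48.6% of 13926 genes were called lower and 0.510% higher. MIS12 changed by -2.86 on the log2 scale (SE 0.47, limma adjusted p = 0.00380), CENPE by -2.19 (SE 0.53, adjusted p = 0.0115) and NDC80 by -0.98 (SE 0.36, adjusted p = 0.0478). Mature RNA is the denominator of this ratio, so a fall for MIS12 was likely once it was chosen by its mature rise. PMF1 had -2.85 with a wide error (SE 1.19, limma adjusted p = 0.0756). The others lay between -1.10 (NUF2) and -0.47 (SPC25). The median over all genes was -1.36, that over the 10 genes -0.999, and 34 of the 43 wider genes fell, with a median of -1.39. MIS12 and CENPE passed in all 10 alternatives run, MIS12 with adjusted p from 8.06e-04 to 0.0160. NDC80 passed in 3 of 10: its adjusted p was 0.120, 0.0730 and 0.0995 without 15 min replicate 1, 2 or 3, and 0.112 and 0.0630 without 45 min replicate 1 or 3.

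**Figure D4:**
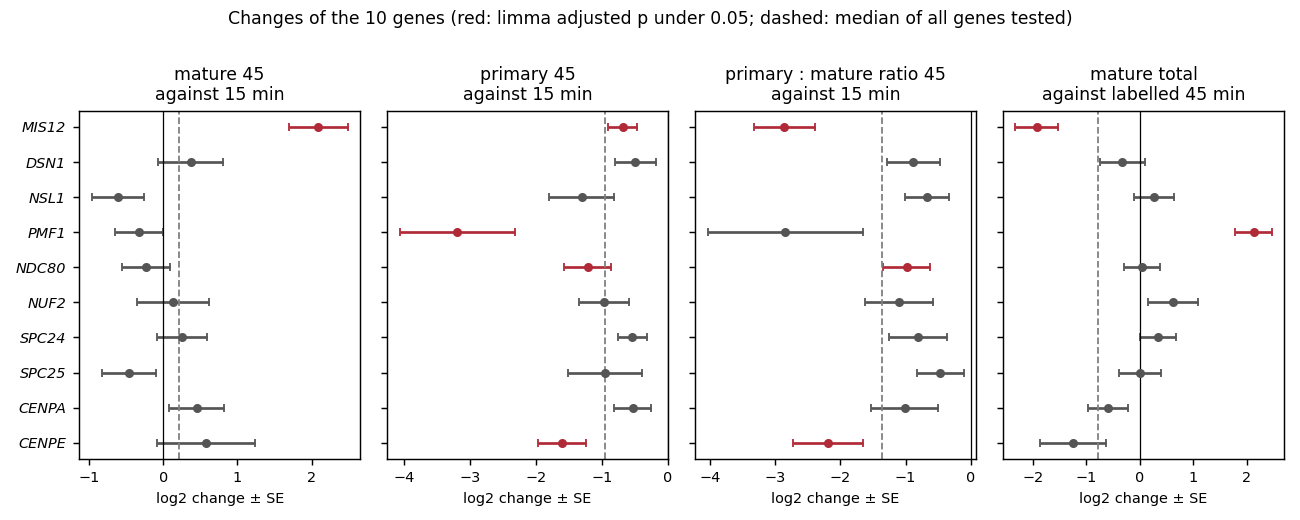
Log2 changes with standard errors of the 10 genes in the 4 tested comparisons (points red where the limma adjusted p is under 0.05), with the median of all genes tested as a dashed line. MIS12 is the only gene past the threshold for mature RNA at 45 against 15 min (2.09), and in total RNA it lies at -1.92 and PMF1 at 2.12.

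In total RNA MIS12 was among the lower genes of the group. Its mature level was 25.5 TPM after poly(A) selection, 14.4 TPM after RNase H and 14.3 TPM after Ribo-Zero, all below every labelled library from 30 min on. Against 45 min it was lower, by -1.92 on the log2 scale (SE 0.40, limma adjusted p = 0.00182). MIS12 was chosen for a rise to a high level late in labelling. A lower level in total RNA than at 45 min was therefore likely, and this result is not independent of the choice. PMF1, at 85.7, 41.9 and 58.99 TPM, was higher (2.12, SE 0.34, limma adjusted p = 3.03e-04). Thus 1 of 10 rose and 1 fell, where 5.67% of 16580 genes were called higher and 34.8% lower. The medians were 0.02 over the 10 genes and -0.78 over all genes.

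The other 8 genes did not pass, with log2 changes from -1.25 (CENPE, SE 0.61) to 0.62 (NUF2, SE 0.46). With median-ratio scaling, which moved the median over all genes to -0.03, MIS12 was at -0.98 (limma adjusted p = 0.0551), and 6 of the 10 genes passed as higher and 0 as lower. Under that scaling 18.3% of all genes were called higher and 14.1% lower. Without 45 min replicate 1 CENPE also passed as lower (-1.99, limma adjusted p = 0.0102). Of the 43 wider genes 2 rose and 13 fell, shares near the 5.67% and 34.8% of all genes, and their median was -0.38 against -0.78 over all. Those that rose were CENPH of the inner kinetochore (0.94) and SKA2 of the microtubule-binding Ska complex (1.07), and the lowest were the checkpoint gene MAD1L1 (-1.82) and the inner kinetochore genes CENPL (-1.72) and CENPC (-1.63), chosen here after their values were seen.

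The 3 total libraries ranked the genes in their own ways. For 9 of the 10 genes the poly(A) library had the highest TPM, and for SPC24 the RNase H library. By mean TPM the order was PMF1 (62.2 ± 22.1), SPC24 (44.2 ± 9.67), NSL1 (39.4 ± 15.0), NDC80 (36.5 ± 9.74), NUF2 (33.9 ± 9.31), CENPE (21.5 ± 8.23), DSN1 (20.6 ± 5.88), MIS12 (18.1 ± 6.43), SPC25 (16.8 ± 6.49) and CENPA (12.8 ± 4.15; SD, n = 3 each). Each gene overlapped with its neighbours in this order. The part of the selection method in the differences from labelled RNA was not tested.

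MIS12 had a higher unspliced share in total RNA than any of its partners. The MIS12 locus is also the shortest of the group and overlaps DERL2, and the part of either in this share was not tested. The MIS12 share was 7.83%, 14.6% and 11.04% (11.2% ± 3.39, SD, n = 3), and 87.3% to 89.9% of genes were lower in the same library. The partners' means ran from 0.723% (SPC25) to 4.32% (CENPA), and the median over all genes was 2.60% ± 0.641 (SD, n = 3). The lowest MIS12 library (7.83%) lay above the highest partner library (5.49%, CENPA). Primary MIS12 was at 2.17, 2.47 and 1.78 TPM there. In the authors' deposited table of copies per cell, MIS12 had 2.49, 6.01 and 3.21 mature copies with poly(A), RNase H and Ribo-Zero and 0.253, 1.07 and 0.366 primary copies. Per the file headers, the authors set these copies with ERCC spike-ins, which are synthetic RNAs added in known amounts.

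The authors' rates were estimated from these same labelled libraries, 7.5 and 60 min included, so they describe the same course and are no separate support. In the authors' deposited table MIS12 had a synthesis score at the 86.0th percentile of 15120 genes, second of the 10 to PMF1 (90.6th). In the authors' deposited table its processing score, at the 18.1th percentile, was the lowest of the 10, and CENPA (21.3th) was next, while SPC25 (89.7th) was highest. Its degradation score in the authors' deposited table, at the 68.0th percentile, was the highest of the 10, and the partners ran from the 7.75th (NUF2) to the 47.1th (CENPE). MIS12 was thus the only one of the 10 above the middle of all genes for degradation.

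Measures from other libraries of the study spread the genes differently. In the authors' deposited table MIS12 was at the 78.7th percentile for the cytoplasmic to nuclear ratio, between CENPA (89.8th) and PMF1 (68.3th), with NUF2 lowest (23.4th). For the polysomal to cytosolic ratio the authors' deposited table put MIS12 at the 51.9th percentile, PMF1 at the 97.1th and CENPE, the longest locus of the group, at the 1.62th. For the translation score the authors' deposited table put 9 of the 10 between the 68.5th (NSL1) and 89.2th (SPC25) percentiles, with MIS12 at the 75.2th, and CENPA at the 12th. The clusters of the authors' deposited table had 7 of the 10 genes in c2, which holds 21.3% of genes, with PMF1 in c1, CENPE in c3 and CENPA in c6.

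**Figure D5:**
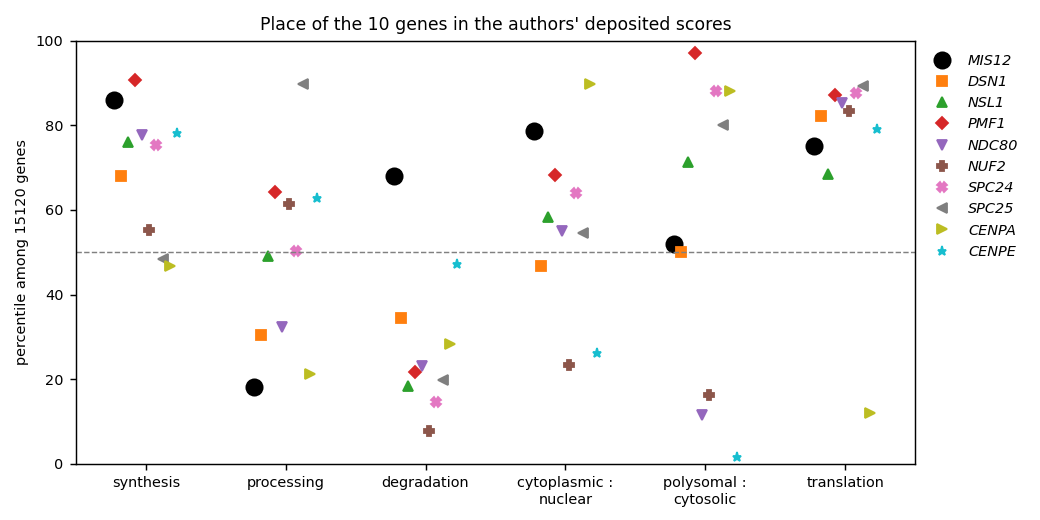
Percentile among 15120 genes of each of the 10 genes in 6 scores of the authors' deposited table, with MIS12 as large black circles and the middle of all genes dashed. MIS12 is the lowest of the 10 for processing (18.1) and the highest for degradation (68.0).

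Intron values in the authors' deposited table were listed for 17 introns of 5 of the 10 genes, and MIS12 was not among them. They give the excised share, averaged over replicates by the authors, with hg19 positions. There the 7 CENPE introns of the authors' deposited table had a median of 58.5% excised at 7.5 min and 91.6% at 60 min, and the 7 NDC80 introns 42.5% and 77.0%, beside 54.2% and 84.4% over 21782 introns. The first listed NDC80 intron (chr18:2571683-2572975) was at 62.2% at 60 min, where the gene's 7 introns ran from 61.9% to 86.9%, in the authors' deposited table. The PMF1 intron at chr1:156206275-156209338 had 72.9%, 57.4%, 41.1%, 43.6% and 57.0% at 7.5, 15, 30, 45 and 60 min in the authors' deposited table. It thus differed between 15 and 30 min, although the mean unspliced share of PMF1 was 87.3% at both. Its 15 min value was close to that at 60 min, when the unspliced share was 40.98%. The SPC24 intron at chr19:11258794-11259769, with splice site scores of -11.7 and -6.09 against medians of 8.76 and 8.72, was at 48.4% and 49.3% in the authors' deposited table.

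The genes whose course over the 15 labelled libraries was most like that of MIS12 were on neither kinetochore list. By Pearson's r of log2(TPM + 1) among 12358 genes with a mean of at least 5 TPM, they were ATMIN (0.98), ZBTB34 (0.98), an entry without a matched symbol (0.98), DIDO1 (0.97) and SIRT1 (0.97). The lists hold only 10 and 43 genes, so their absence among these 5 is likely for any gene and says little about the lists. ATMIN, a transcription factor gene of the DNA damage response, went from a mean of 15.1 TPM at 7.5 min to 53.2 TPM at 60 min, and SIRT1, a protein deacetylase gene, from 11.4 to 60.4 TPM. DERL2 was 788th (0.85) and CENPA 2327th (0.71), and the other partners lay between 0.44 (DSN1) and -0.64 (PMF1). These r values describe points that share libraries and their scaling.

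Checks of the whole series showed limits that touch these values. A non-zero mature value was present for 15159 genes in 45 min replicate 2 and for 18318 to 20407 in the other labelled libraries, and primary transcripts took 22.3% to 23.8% of the TPM at 7.5 min and 7.19% to 11.03% at 60 min. Of the markers known in HEK293, VIM was at 228 to 371 TPM in the labelled libraries and PAX2 had a median of 5.44 TPM, while PAX8 (at most 0.11 TPM) and NEFM (at most 2.40 TPM) were near 0. Of 7 markers of other cell types, ALB, PTPRC, CD3E, LUM and PECAM1 were at most 0.59 TPM, and HBA1 and COL1A1 ranged from 0 to 17.4 TPM (median 3.51) and from 0.26 to 5.78 TPM (median 1.56) in the labelled libraries.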

How the data were processed

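Newly made and total RNA of HEK293 cells was measured in 18 libraries, 3 per group, grouped by the labels. The authors deposited TPM, made with Bowtie 1.0.1, RSEM 1.2.11 and the build hg19 per the submitters' processing notes. Per the file headers, each gene had an added isoform spanning its locus (the primary transcript), and mature TPM are the sum of its other isoforms. The excised share of an intron is a fraction deposited by the authors, beside splice site scores, GC fraction and log10 intron length. The authors' deposited rate scores were used for order only, as were the deposited log2 ratios between cell fractions and the log10 translation score. Depth is unknown, since TPM do not carry it.

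Symbols from the gene name table given with the data matched 52181 of 63568 identifiers (82.1%). Mature TPM were compared as log2(TPM + 1) over genes with a mean of at least 1 TPM, and primary TPM as log2(TPM + 0.1) over those with at least 0.1 TPM. Changes on these scales understate those of low genes. The primary to mature ratio used a pseudocount of 0.1 on both. Tests were limma 3.58.1 (R 4.3.3, empirical Bayes with trend) with Benjamini-Hochberg adjustment over all genes at 0.05, checked on simulated data. The 45 against 15 min fits used the 9 libraries at 15, 30 and 45 min, and the comparison with total RNA used these and the 3 total libraries, 12 in all. Motifs and promoters came from RefSeq windows of GRCh38.p14, and gene positions from GENCODE 29.

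The members and lists were chosen with earlier results of these data known. Named were all 10 members, DERL2 and overlapping genes, the 5 genes most like MIS12, and up to 4 wider kinetochore genes called in each direction at 45 against 15 min. The alternatives were other filters, pseudocounts, scalings, fits and left-out libraries. The markers LHX1 and NEFL were not analysed here.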

Additional observations from a re-analysis of the deposited data

How the results depend on the processing

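The depth is unknown and 3 libraries per group limit precision. Among the alternatives run, the primary to mature ratio of MIS12 passed in all 10, from -3.30 to -2.57 with left-out libraries, and its level in total RNA passed in 10 of 11. Its mature rise at 45 against 15 min passed in 6 of 14, always with the same sign, and its primary fall in 5 of 11. The ratio, total RNA and mature results are not independent of the choice of MIS12. Where a call was lost the cause was not tested.

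Mature RNA, 45 against 15 min: 1 member passed as higher, but 0 did without the filter (MIS12 2.09), with median-ratio scaling (1.80), with TPM rescaled over mature transcripts (1.93) and on the sum of both forms (0.71). Left-out libraries gave 0 to 1 members, MIS12 from 1.65 to 2.58, NUF2 from -0.27 to 0.67 and NDC80 from -0.63 to 0.0036. With median-ratio scaling NUF2 was -0.15, SPC24 -0.043 and the median of all genes -0.055. Quantile normalization gave -0.14 and -0.035, rescaling gave NUF2 -0.036, and the sum gave NUF2 -0.035, SPC24 -0.046 and a median of -0.13. Genes called higher, 417, ranged from 16 (sum) to 1487 (block) and genes called lower, 111, from 13 to 318.

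Primary RNA: 4 members passed as lower, but 1 without the filter (MIS12 -0.69), 7 with all 15 labelled libraries in the fit, 0 with median-ratio scaling and 0 to 6 with left-out libraries, where MIS12 ran from -0.88 to -0.57. Median-ratio scaling gave MIS12 0.32, DSN1 0.50, NUF2 0.020, SPC24 0.46, CENPA 0.46 and CDCA8 0.10. Genes called lower, 7002, ranged from 8 (median-ratio) to 10927 (block) and genes called higher, 50, from 2 to 98. With left-out libraries alone the genes called lower ranged from 11 to 9952, so the member counts cannot be read apart from those of all genes. For the ratio 3 members fell, 6 with all 15 libraries and 2 to 4 with left-out ones, and genes called lower, 6770, ranged from 4398 to 7609 and higher, 71, from 47 to 113.

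Total RNA against 45 min: median-ratio scaling gave 6 members higher and 0 lower, and quantile normalization 5 higher. Signs reversed, without a call in any alternative, for DSN1 (0.61 and 0.51 in these 2 settings), CENPA (0.31 and 0.31) and DERL2 (0.45 and 0.29). With median-ratio scaling MIS12 was at -0.98 and CDCA8 at 0.018, neither of them called. Left-out libraries gave 1 to 2 lower, NSL1 from -0.10 to 0.51, SPC25 from -0.31 to 0.33 and NDC80 from -0.17 to 0.16. Genes called higher, 940, ranged from 605 to 3037 and those lower, 5777, from 2320 to 6359.

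Replicate numbers were shared across times, and correlations of same-numbered deviations between times ran from -0.01 to 0.29. For replicates 1 and 3 they were 0.15 to 0.29, above the best with another number (-0.07 to 0.04). For replicate 2 they were -0.01 to 0.05, and the best with another number 0.05 to 0.11. Deviations were taken from the mean of the 3 libraries at a time, so correlations with other numbers fall when that with the same number rises. Libraries numbered 1 at different times may share a batch, as may those numbered 3, which the labels do not state. The main fits left the replicate out, and the calls depend on that choice. With the replicate as a block MIS12 passed for mature RNA (2.09, limma adjusted p = 0.0104). For primary RNA 9 members passed as lower with that block, where 10927 of all genes did. NDC80 lost its call for the ratio (-0.98, limma adjusted p = 0.0589).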
